A study of Mus musculus with 90 samples.

Results

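Amino acid transporters of the liver were followed, namely Slc38a2, Slc38a3, Slc38a4, Slc7a2, Slc43a1, Slc1a2, and Slc16a10. They are 7 of the 24312 gene symbols in a table of liver RNA from 54 single mice, and were taken by name. Where a symbol had several transcript IDs, the ID with the highest mean over all 54 libraries stood for it. The study asked how a meal, glucocorticoids, and insulin shape liver transcription around the start of the night, and RNA was measured in 5 experiments, each of which had its own controls. All values are RPKM, reads divided by transcript length and by the size of the library, and every p-value is from limma's linear model, adjusted over all genes tested by the Benjamini-Hochberg (BH) procedure, and every log2 fold change is a difference on the log2(RPKM + 0.5) scale, so that changes of weakly expressed genes are understated.

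All mice were on night-restricted feeding (NRF) for 4 days, with lights off at ZT12, the zeitgeber time in hours. In the NRF experiment (C57BL/6N males, 10 weeks old, RNA depleted of ribosomal RNA), livers were taken at ZT10 (n = 2) and at ZT14 from mice with food withheld (ZT14-unfed, n = 2) or given (ZT14-fed, n = 2). In the injected mice (C57BL/6N, 10 weeks old, n = 4 per group), PBS (vehicle), dexamethasone (dex, a synthetic glucocorticoid, 1 mg/kg), S961 (a peptide antagonist of the insulin receptor), or both drugs were given into the peritoneum 30 min before ZT12, and livers were taken at ZT14 from unfed vehicle, fed vehicle, fed dex, fed S961, and fed dex + S961 mice. In the L-GRKO experiment (n = 4 per group, unfed, ZT14), adult mice on a C57BL/6N background with both copies of the glucocorticoid receptor gene Nr3c1 flanked by loxP sites (GR fl/fl) received an adeno-associated virus (AAV8) that carries Cre under the hepatocyte promoter Tbg. Their controls were GR fl/fl mice given the same type of virus with GFP, so that both groups carried the floxed alleles and a virus. In the L-IRSdKO experiment (n = 4 per group, ZT14), mice on a C57BL/6J background, 10 weeks old, that lack Irs1 and Irs2, the adaptors of the insulin receptor, in the liver were compared with IRS fl/fl mice. Both of those groups were fed and had received dex at 1 mg/kg, so that no group shows the loss of Irs1 and Irs2 without dex. In the obesity experiment (males, 5 weeks old at the start, n = 3 per group), mice ate chow (lean) or a diet with 60% of its energy from fat (obese) for 10 weeks before NRF, and were unfed or fed at ZT14. Each library is a single mouse, and all comparisons are between mice.

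Amino acids from the gut reach hepatocytes through the portal vein, and transporters of the solute carrier (SLC) families set how fast they enter or leave the cell. In fasting and under glucocorticoids, hepatocytes take up more amino acids, whose carbon feeds gluconeogenesis and whose nitrogen feeds the urea cycle, and insulin acts on many of the same genes. Slc38a2 (SNAT2) and Slc38a4 (SNAT4) carry small neutral amino acids such as alanine into the cell together with sodium. Slc38a3 (SNAT3) carries glutamine, asparagine, and histidine in exchange for protons, and can run in both directions. Slc7a2 (CAT2) carries the cationic amino acids arginine, lysine, and ornithine. Slc43a1 (LAT3) is a facilitative carrier of branched-chain amino acids and phenylalanine, Slc16a10 (TAT1) one of aromatic amino acids, and Slc1a2 (GLT-1) takes up glutamate, in the liver mainly in the hepatocytes around the central vein.

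Depth was recovered from what 1 read is worth in each library, and was 26.1 to 38.3 M reads per library in the NRF mice, 6.47 to 13.4 in the injected mice, 15.2 to 33.7 in the L-GRKO experiment, 3.64 to 4.48 in the L-IRSdKO experiment, and 16.8 to 62.2 in the obesity experiment. The L-IRSdKO experiment stood apart. Its recovered depth is the number of reads by which the RPKM were scaled, and lies below the library totals the study lists, for a reason not given in the sources used here. Albumin, the main secreted protein of hepatocytes, reached 18853 to 60597 RPKM in the libraries of the other experiments and 650 to 914 RPKM there, and 6 hepatocyte markers summed to 2361 to 2960 RPKM there against at least 30170 RPKM in every other library. Levels were therefore compared only within an experiment. In the injected mice, the library numbers in the labels set replicate 4 of every group apart from replicates 1 to 3, and for results that passed, or that the series changed, values are also given within replicates 1 to 3 and between the mice of replicate 4. The knockouts showed in the targeted genes for Nr3c1, at 12.8 to 16.2 RPKM in GR fl/fl AAV-GFP and 3.93 to 5.35 in L-GRKO livers (log2 fold change -1.58 (SE 0.12, adjusted p = 6.83e-05)), and for Irs1, at 2.21 to 4.73 RPKM in IRS fl/fl and 0.149 to 0.321 in L-IRSdKO livers (log2 fold change -2.66 (SE 0.25, adjusted p = 0.000916)). Irs2 overlapped between the groups, with 0.614 to 5.61 RPKM in IRS fl/fl and 0.272 to 1.00 in L-IRSdKO livers (log2 fold change -0.79 (SE 0.50, adjusted p = 0.308)). Of 10 lists of cell type markers, those with a marker that passed the test are given beside the comparison, as are lists whose sums did not overlap. In bulk liver RNA, fewer cells of a type and less RNA per cell cannot be told apart.

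In each of the 5 experiments Slc38a3 and Slc38a4 were the most abundant of the 7, followed by Slc7a2, and Slc43a1 was the lowest. Slc38a3 ranked between 88 and 178 of 24312 symbols by its mean level per experiment, and Slc38a4 between 154 and 209. Mean levels in the injected mice were 532 RPKM for Slc38a3, 320.3 for Slc38a4, 142 for Slc7a2, 50.8 for Slc38a2, 40.4 for Slc1a2, 30.1 for Slc16a10, and 5.56 for Slc43a1. Slc38a3 and Slc38a4 changed places between experiments. In the NRF mice the mean of Slc38a4 was 220.6 RPKM and that of Slc38a3 was 202, whereas Slc38a3 was higher in the other experiments. Neighbours in the order overlapped in several groups. In unfed vehicle mice, Slc38a2 at 32.5 to 55.9 RPKM overlapped Slc1a2 at 37.4 to 46.4, and in ZT10 livers Slc38a2 at 19.0 to 21.9 RPKM overlapped Slc16a10 at 18.04 to 19.6. The low level of Slc43a1 corresponds to 52 to 819 reads per library (median 196), against at least 662 reads for each of the other transporters, so that its differences have the largest counting error.

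**Figure D1:**
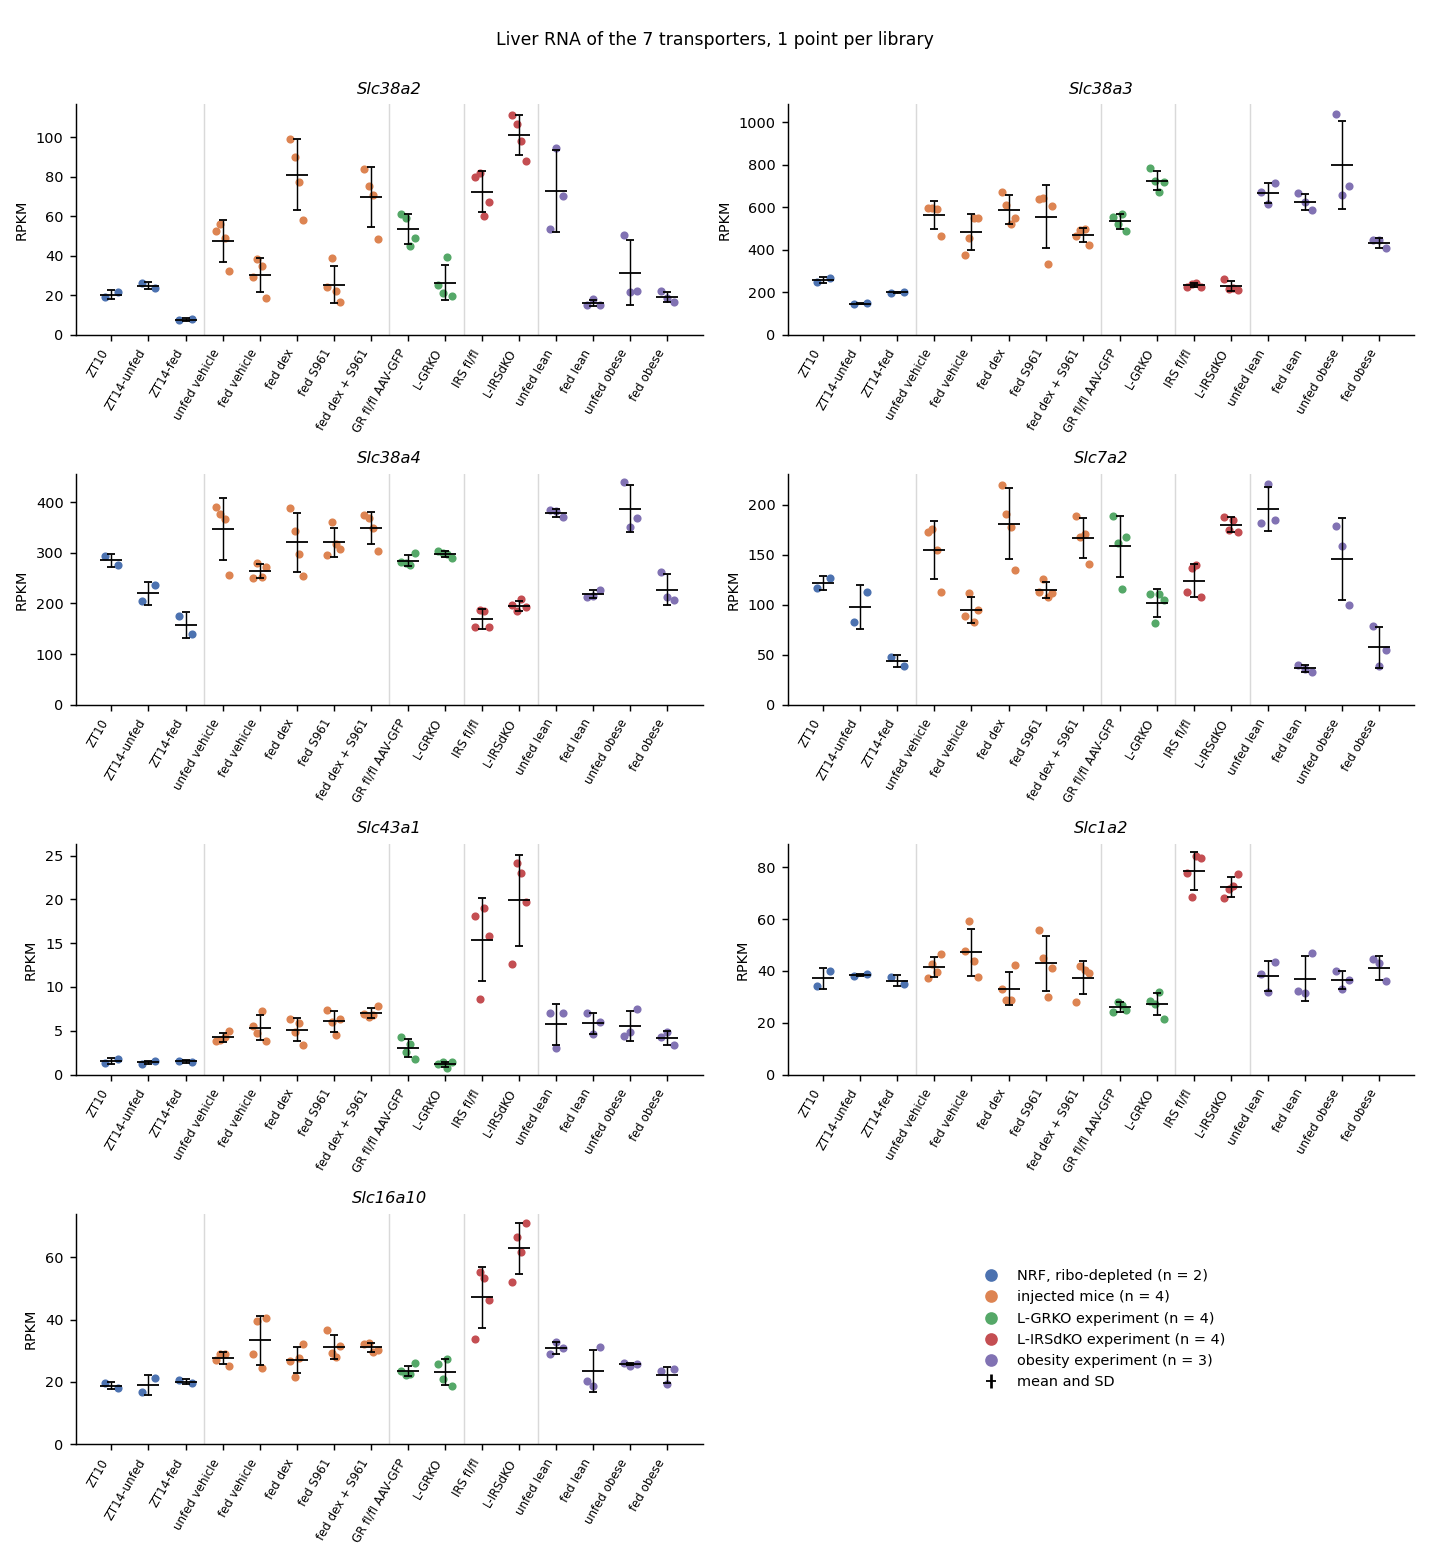
Level of each transporter in RPKM (y axis, 1 panel per gene, each with its own scale) in the 16 groups (x axis); dots are single mice and bars the group mean ± SD. Slc38a2 and Slc7a2 had lower means in fed vehicle than in unfed vehicle, fed dex, and fed dex + S961 livers, and in fed lean than in unfed lean livers. Their means were also lower in unfed obese than in unfed lean livers, and in unfed L-GRKO than in GR fl/fl AAV-GFP livers. For Slc1a2 and Slc16a10 no comparison passed the test and most groups overlap.

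Peaks near the 7 genes were read from the deposited lists of 10446 peaks of the glucocorticoid receptor (GR) and 8546 peaks of FOXO1, the insulin-restrained forkhead factor, both from unfed livers at ZT14, and of 83592 DNase hypersensitive sites (DHSs). The lists give positions only, so no height or change with feeding can be given. Within 50 kb of a transcription start lay 30 GR peaks, 7 each at Slc38a4 and Slc16a10, 6 at Slc7a2, 5 at Slc38a2, 3 at Slc43a1, 2 at Slc38a3, and 0 at Slc1a2, and 20 of the 30 were in introns of the gene. Slc1a2 had its nearest GR peak 54160 bases downstream of its start. Of the 30 GR peaks, 18 had the centre of a FOXO1 peak within 200 bases and 28 the centre of a DHS. The shares of all GR peaks with such neighbours were not counted. For comparison, 47.6% of 9927 expressed genes (mean 0.5 RPKM or more) had a GR peak within 50 kb and 50.4% a FOXO1 peak, and 6 of the 7 transporters had each, so the presence of a peak was shared with many other genes.

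**Figure D2:**
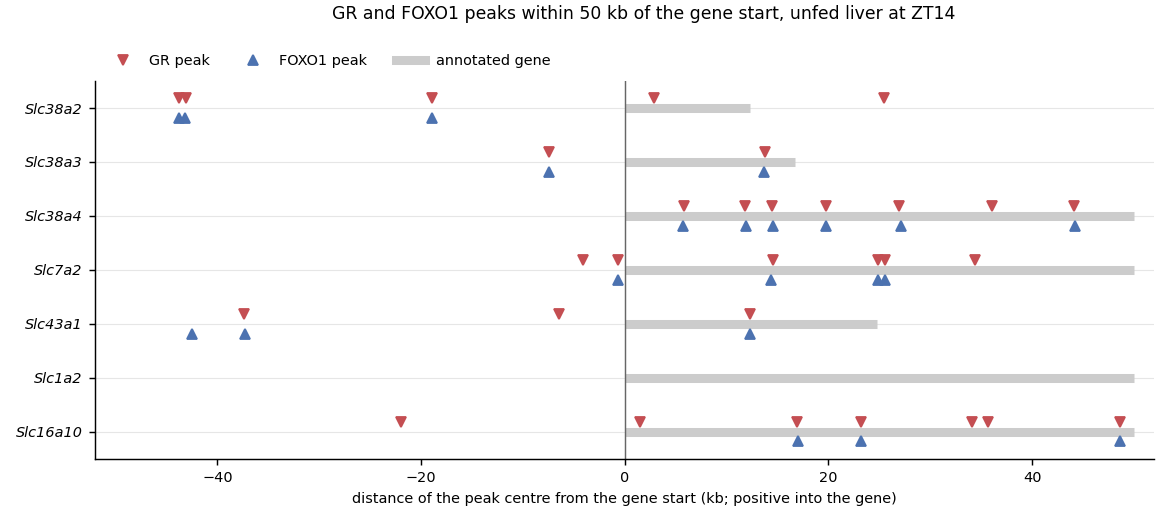
Centres of GR peaks and FOXO1 peaks (2 rows of marks per gene) by their distance in kb from the transcription start of each transporter (x axis, 50 kb on either side, positive in the direction of transcription), with the annotated gene in grey. Slc7a2 has a GR peak 630 bases and a FOXO1 peak 694 bases upstream of its start, Slc38a4 a row of both within its gene, and Slc1a2 none in this window.

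Of the peaks at the 4 transporters whose RNA differed between L-GRKO and GR fl/fl AAV-GFP livers, 6 sequences are shown as examples. They are 180 bases each, from the plus strand of mm9, and capitals mark ACANNNTGT, the core of the palindrome that GR dimers bind, or TGTTTAC, the forkhead core, searched on both strands. At Slc7a2 (chr8:41947750-42007662, plus strand), the GR peak closest to the start held neither motif, whereas a peak in an intron held the GR core, and a FOXO1 peak nearby held the forkhead core. Of its GR peaks not shown, that 14552 bases downstream held the GR core. The GR peak 25580 bases downstream, 30 bases from the FOXO1 peak shown, held the forkhead core. Those 4078 bases upstream and 34414 bases downstream held neither. The FOXO1 peak 24840 bases downstream, 13 bases from a GR peak shown, held the GR core and no forkhead core. At Slc38a2 (chr15:96517825-96530129, minus strand), the GR peak in the gene held neither. At Slc38a3 (chr9:107552970-107569705, minus strand) and Slc43a1 (chr2:84679007-84703751, plus strand), the peaks shown held the GR core. The GR peak closest to the Slc38a3 start, 7442 bases upstream, is not shown and held neither motif. At Slc43a1, the GR peaks 37422 bases upstream and 12312 bases downstream, also not shown, held neither.
Slc7a2, GR peak 630 bases upstream of the start (chr8:41947030-41947209): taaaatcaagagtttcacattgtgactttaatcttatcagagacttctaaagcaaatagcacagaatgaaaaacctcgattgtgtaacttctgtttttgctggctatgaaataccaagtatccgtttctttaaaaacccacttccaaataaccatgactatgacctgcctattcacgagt
Slc7a2, intronic GR peak 24852 bases downstream (chr8:41972513-41972692): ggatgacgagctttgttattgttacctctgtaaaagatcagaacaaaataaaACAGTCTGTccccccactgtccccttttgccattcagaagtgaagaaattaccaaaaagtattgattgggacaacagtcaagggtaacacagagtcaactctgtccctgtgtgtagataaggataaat
Slc7a2, intronic FOXO1 peak 25550 bases downstream (chr8:41973211-41973390): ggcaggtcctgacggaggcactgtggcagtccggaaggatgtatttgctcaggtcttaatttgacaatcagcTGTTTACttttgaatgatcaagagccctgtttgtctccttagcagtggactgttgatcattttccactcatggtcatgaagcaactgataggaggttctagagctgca
Slc38a2, intronic GR peak 2846 bases downstream (chr15:96527193-96527372): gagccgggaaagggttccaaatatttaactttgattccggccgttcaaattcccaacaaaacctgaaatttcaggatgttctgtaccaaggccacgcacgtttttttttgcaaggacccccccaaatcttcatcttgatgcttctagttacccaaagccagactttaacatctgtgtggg
Slc38a3, intronic GR peak 13814 bases downstream (chr9:107555801-107555980): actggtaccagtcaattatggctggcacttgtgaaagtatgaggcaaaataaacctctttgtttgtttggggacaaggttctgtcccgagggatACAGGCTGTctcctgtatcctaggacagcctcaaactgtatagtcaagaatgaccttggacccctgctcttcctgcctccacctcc
Slc43a1, GR peak 6498 bases upstream of the start (chr2:84672420-84672599): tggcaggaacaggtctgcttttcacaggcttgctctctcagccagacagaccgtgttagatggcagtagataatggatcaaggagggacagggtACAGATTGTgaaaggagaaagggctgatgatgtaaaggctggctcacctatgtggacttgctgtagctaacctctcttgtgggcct
In all, 6 of the 30 GR peaks held the GR core, against 20.3% of all GR peaks, and 6 of 21 FOXO1 peaks held the forkhead core, against 18.8% of all FOXO1 peaks. The GR peaks shown hold the GR core more often than the 30 do, so the examples do not stand for the rest. The 5 GR peaks at Slc38a2 held neither motif. These are matches of letters and not shown to be binding sites.

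The NRF mice separated the passage of time from the meal. Between ZT10 and ZT14-unfed only Slc38a3 passed the threshold, and it fell. Its levels were 249 and 267 RPKM at ZT10, 144 and 149 at ZT14-unfed, and 199 and 203 at ZT14-fed. Both ZT10 livers were the highest, both ZT14-unfed livers the lowest, and the fed livers lay between. From ZT10 to ZT14-unfed the log2 fold change of Slc38a3 was -0.81 (SE 0.08, limma, adjusted p = 0.00547), and from ZT14-unfed to ZT14-fed it was 0.45 (SE 0.08, limma, adjusted p = 0.0253), which did not pass. Slc38a4 had 294 and 275 RPKM at ZT10, 204 and 235 at ZT14-unfed, and 175 and 139 at ZT14-fed. Its 3 groups did not overlap, in that order, but neither step passed, with log2 fold changes of -0.38 and -0.49 (adjusted p = 0.121 and 0.0689). Thus 1 of the 7 passed at an adjusted p under 0.01 for time, where 1.16% of the genes tested passed, 0.376% upward and 0.788% downward. With 2 mice per group, the call for Slc38a3 was lost when either ZT10 library or ZT14-unfed replicate 2 was left out, with an adjusted p of up to 0.0335. It was also lost without the filter on low values (0.0323), with libraries scaled to a common median ratio (0.0117), and without the variance trend (0.0104, each an adjusted p by limma). Sums of hepatocyte, stellate, and adipocyte markers were higher and of pancreatic acinar markers lower at ZT14-unfed. These are 4 of 10 lists without overlap, with no marker past the test. In both ZT14-unfed libraries 5 of the 6 pancreatic acinar markers were at 0, so that sum is Cela1 alone there. Groups of 2 mice separate easily by chance, and how many of all genes were without overlap was not counted. The part of these lists in the result was not tested.

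The meal lowered Slc38a2 in the NRF mice. Slc38a2 had 19.0 and 21.9 RPKM at ZT10, 26.3 and 23.6 at ZT14-unfed, and 7.32 and 8.19 at ZT14-fed. Both fed livers were below all 4 others. The meal's log2 fold change was -1.62 (SE 0.12, limma, adjusted p = 0.00146), or 0.324 times the unfed level. Slc7a2 had 82.3 and 113 RPKM at ZT14-unfed and 47.7 and 39.1 at ZT14-fed, without overlap, and a log2 fold change of -1.15 (SE 0.16, limma, adjusted p = 0.0131), which missed the threshold of 0.01. Slc38a2 was the 1 transporter of the 7 that passed, where 0.99% of the genes tested passed, 0.568% upward and 0.422% downward, and 4 of the 7 had an unadjusted p under 0.05, as had 27.7% of all genes tested. The call for Slc38a2 was lost without either ZT14-fed library, at an adjusted p of up to 0.0288, and without the filter on low values (adjusted p = 0.0132). The median of all genes was 0.12 higher (log2) in ZT14-fed than in ZT14-unfed livers, and relative to it the fall of Slc38a2 is larger and the difference of Slc38a3 smaller. Sums of hepatocyte, endothelial, stellate, and adipocyte markers were lower in ZT14-fed livers, 4 of 10 lists without overlap, with no marker past the test. Groups of 2 mice separate easily by chance, and how many of all genes were without overlap was not counted. The part of these lists in the result was not tested.

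In the injected mice, the meal was compared between fed and unfed vehicle livers, and Slc7a2 fell. Slc7a2 had 173, 176, 155, and 113 RPKM in unfed and 88.9, 112, 82.4, and 94.9 in fed vehicle mice (replicates 1 to 4 in this order, here and below). The groups touched without overlap, since the lowest unfed mouse was replicate 4. The log2 fold change was -0.69 (SE 0.15, limma, adjusted p = 0.0229). It was -0.84 within replicates 1 to 3 and -0.25 between the mice of replicate 4. Slc38a2 had 52.7, 55.9, 49.0, and 32.5 RPKM in unfed and 29.5, 38.4, 34.8, and 18.7 in fed vehicle mice. Within replicates 1 to 3 the groups were apart, and replicate 4 was the lowest of both groups. Over all 4 replicates the log2 fold change of Slc38a2 was -0.66 (SE 0.26, limma, adjusted p = 0.173), and it did not pass, whereas with a term for the library series its adjusted p was 0.00749. Within replicates 1 to 3 the log2 fold change was -0.62, and between the 2 mice of replicate 4 it was -0.78. Slc38a4, with 389.5, 376, 368, and 256 RPKM in unfed and 251, 281, 252, and 271 in fed vehicle mice, had a log2 fold change of -0.38 (SE 0.14, limma, adjusted p = 0.138), with -0.53 within replicates 1 to 3 and 0.08 between the mice of replicate 4, and an adjusted p of 0.0343 with the series term. Thus 1 of the 7 passed, where 3.13% of the genes tested passed, 2.55% upward and 0.578% downward, or 352 of 11251. With the series term 3 of the 7 passed, where 1036 of the 11251 genes passed. The call for Slc7a2 was lost without any 1 of 5 libraries (fed vehicle replicates 1 and 3, unfed vehicle replicates 1, 2, and 3), with an adjusted p of up to 0.0856. Markers of Kupffer cells, the macrophages of the liver, moved with this comparison, with a sum of 6 genes of 46.9 to 60.2 RPKM in unfed and 65.0 to 101 in fed vehicle livers, and Cd5l, Adgre1, and Timd4 passed upward. Their part in the result was not tested.

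**Figure D3:**
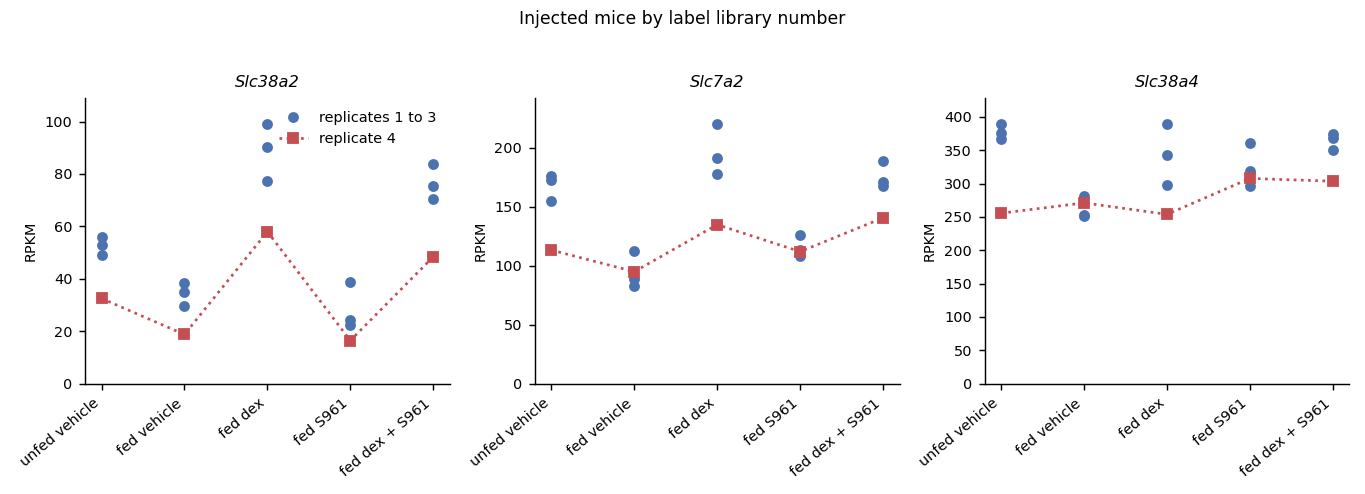
Levels of Slc38a2, Slc7a2, and Slc38a4 in RPKM (y axis) in the 5 groups of injected mice (x axis), with replicates 1 to 3 as dots and replicate 4, of the other library series, as red squares joined by a dotted line. Replicate 4 is the lowest mouse of Slc38a2 in all 5 groups, and within it, as among the dots, Slc38a2 and Slc7a2 lie higher in both dex groups than in fed vehicle mice.

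In lean mice of the obesity experiment, the meal lowered Slc38a2, Slc7a2, and Slc38a4. Slc38a2 had 53.7, 94.7, and 70.1 RPKM in unfed lean and 15.3, 17.99, and 15.3 in fed lean livers, and Slc7a2 had 181, 221, and 184 and 39.97, 35.6, and 33.2. For Slc7a2 the lowest unfed mouse was far above the highest fed mouse, and for Slc38a2 the groups were as clearly apart. Their log2 fold changes were -2.10 (SE 0.29, limma, adjusted p = 0.000967) for Slc38a2 and -2.41 (SE 0.25, limma, adjusted p = 0.0003) for Slc7a2, or 0.233 and 0.188 times the unfed level. Slc38a4 fell from 384, 382, and 370.1 RPKM to 213, 215, and 227, by a log2 fold change of -0.79 (SE 0.11, limma, adjusted p = 0.000863). The glutamine carrier Slc38a3 had 674, 617, and 713 RPKM unfed and 665, 625, and 588 fed. Its groups overlapped, with a log2 fold change of -0.09 (95% interval -0.42 to 0.24, limma, adjusted p = 0.706). Slc38a2, Slc7a2, and Slc38a4 thus passed downward. These are 3 of the 7 genes, where 10.2% of the genes tested passed, 7.0% upward and 3.23% downward at an adjusted p under 0.01, and the 3 calls held without any 1 library. Sums of 5 of the 10 marker lists did not overlap. Endothelial markers went from 63.0 to 76.2 RPKM in unfed lean to 45.1 to 52.2 in fed lean livers, with Stab2 past the test, and stellate markers from 57.8 to 94.8 to 42.0 to 56.1. Adipocyte markers were also lower, and bile duct and pancreatic acinar markers higher. Only 1 of the 6 pancreatic acinar markers was expressed enough to be tested. The part of these lists in the result was not tested.

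In obese mice the meal's difference passed for Slc38a4 alone. Slc38a4 had 439.6, 352, and 369 RPKM in unfed obese and 262, 213, and 207 in fed obese livers, without overlap, and a log2 fold change of -0.77 (SE 0.11, limma, adjusted p = 0.00504), close to the -0.79 of lean mice. Slc38a2 had 50.5, 21.6, and 22.4 RPKM unfed and 22.0, 18.8, and 16.8 fed. Unfed obese replicate 1 was high, whereas the other two lay at the level of the fed mice, and the log2 fold change was -0.60 (SE 0.29, limma, adjusted p = 0.23). Slc7a2 had 179, 159, and 100.3 RPKM unfed and 79.0, 38.4, and 54.5 fed, and Slc38a3 1039, 659, and 699 and 447, 446, and 407. Neither gene overlapped, and both just missed the threshold of 0.01, with log2 fold changes of -1.36 (SE 0.25, limma, adjusted p = 0.0118) for Slc7a2 and -0.85 (SE 0.15, limma, adjusted p = 0.0105) for Slc38a3. So 1 of 7 passed, where 1.22% of the genes tested passed, 0.962% upward and 0.262% downward. The call for Slc38a4 was lost without unfed obese replicate 1 or 2 or fed obese replicate 2 or 3, at an adjusted p of up to 0.0279, and without the filter on low values (adjusted p = 0.0113).

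The difference between the lean and the obese response was tested directly as an interaction, and none of the 7 passed, where 0.131% of the genes tested passed, 0.0875% upward and 0.0437% downward. The estimates were 1.504 (95% interval 0.60 to 2.41, limma, adjusted p = 0.127) for Slc38a2 and 1.05 (95% interval 0.27 to 1.83, limma, adjusted p = 0.208) for Slc7a2, both positive, meaning a smaller fall in obese mice. For Slc38a3 it was -0.76 (95% interval -1.23 to -0.29, limma, adjusted p = 0.132), meaning a larger difference in obese mice, and for Slc38a4 it was 0.03 (95% interval -0.31 to 0.36, limma, adjusted p = 0.952). At an unadjusted p under 0.05 the first 3 of these were past, as were 15.0% of all genes tested, and their intervals exclude 0.

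Obese and lean mice were also compared at the same feeding state. Among unfed mice, Slc38a2 was at 50.5, 21.6, and 22.4 RPKM in obese and 53.7, 94.7, and 70.1 in lean livers, without overlap, and its log2 fold change was -1.27 (SE 0.29, limma, adjusted p = 0.0333), over the threshold of 0.01. Slc7a2 and Slc16a10 were likewise without overlap and lower in unfed obese mice, at 100.3 to 179 against 181 to 221 RPKM and 25.3 to 25.9 against 29.0 to 32.7 RPKM, with log2 fold changes of -0.46 and -0.26 (adjusted p = 0.298 and 0.343). How many of all genes were without overlap was not counted. By limma, 1 of the 7 had an unadjusted p under 0.05 among unfed mice, as had 22.9% of all genes tested. Among fed mice, Slc38a3 had 447, 446, and 407 RPKM in obese and 665, 625, and 588 in lean livers, without overlap, and its log2 fold change was -0.53 (SE 0.15, limma, adjusted p = 0.113). None of the 7 passed in either comparison, where 0.77% of the genes tested passed, 0.42% upward and 0.35% downward among unfed mice, and 0.0% passed among fed mice. By limma, 2284 genes had an unadjusted p under 0.05 among fed mice, among them Slc38a3 and Slc7a2, and no other tool was run. Markers of endothelial cells moved with the unfed comparison, with a sum of 6 genes of 35.1 to 46.7 RPKM in unfed obese and 63.0 to 76.2 in unfed lean livers and Clec4g past the test. Hepatocyte sums were lower, and bile duct and pancreatic acinar sums higher, without overlap in unfed obese mice. In every unfed obese library 5 of the 6 pancreatic acinar markers were at 0, so that sum is Cela1 alone there. Among fed mice 4 lists did not overlap, with hepatocyte and periportal sums lower and pericentral and stellate sums higher in obese livers. The part of these lists in these values was not tested.

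Dex before the meal raised Slc38a2 and Slc7a2 in fed livers. Slc38a2 had 29.5, 38.4, 34.8, and 18.7 RPKM in fed vehicle and 99.1, 90.2, 77.1, and 58.0 in fed dex mice, and Slc7a2 88.9, 112, 82.4, and 94.9 and 220.3, 191, 178, and 135. Every dex mouse was above every fed vehicle mouse for both genes, and replicate 4 was the lowest dex mouse for both. The log2 fold changes were 1.42 (SE 0.26, limma, adjusted p = 0.00509) for Slc38a2, or 2.68-fold, and 0.92 (SE 0.15, limma, adjusted p = 0.00244) for Slc7a2, or 1.89-fold. Within replicates 1 to 3 and between the mice of replicate 4, they were 1.36 and 1.60 for Slc38a2, and 1.06 and 0.50 for Slc7a2. Slc38a4 had 389, 342, 298, and 254 RPKM in fed dex mice, against 251 to 281 in fed vehicle mice, with overlap at replicate 4 and a log2 fold change of 0.26 (SE 0.14, limma, adjusted p = 0.313). Within replicates 1 to 3 it was 0.38 and passed (adjusted p = 0.0337, limma), and between the mice of replicate 4 it was -0.09. Of the others, which gave no call over all 4 replicates, the glutamate carrier Slc1a2 had the lowest estimate, -0.50 (SE 0.18, limma, adjusted p = 0.14), with 47.9, 59.4, 43.7, and 37.6 RPKM in fed vehicle and 33.0, 28.8, 28.6, and 42.5 in fed dex mice. Its difference was -0.72 within replicates 1 to 3, where its adjusted p was 0.041, and 0.17 between the mice of replicate 4. These are 2 of the 7 genes, where 3.19% of the genes tested passed, 1.0% upward and 2.19% downward at an adjusted p under 0.05, and the 2 calls held without any 1 library. Glul, the glutamine synthetase of the hepatocytes around the central vein, the Kupffer cell marker Cd5l, and the endothelial markers Clec4g and Kdr fell in fed dex livers, while the periportal marker Sds rose, and their part in the results was not tested.

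S961 alone gave no call for any of the 7, where 1.9% of the genes tested passed, 0.942% upward and 0.96% downward. Slc38a2 had 24.3, 38.7, 22.2, and 16.4 RPKM and Slc7a2 113, 126, 108, and 112 in fed S961 mice, both overlapping fed vehicle, with log2 fold changes of -0.27 (95% interval -0.82 to 0.28, limma, adjusted p = 0.723) and 0.28 (95% interval -0.04 to 0.61, limma, adjusted p = 0.432). Slc38a4 had 296, 361, 318, and 308 RPKM, all above the highest fed vehicle mouse, but its log2 fold change of 0.28 (95% interval -0.01 to 0.57, limma, adjusted p = 0.37) did not pass. None of the 7 had an unadjusted p under 0.05. The Kupffer cell markers Cd5l and Adgre1 fell in fed S961 livers, and their part in these values was not tested.

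With both drugs, Slc38a2 and Slc7a2 were again higher. Slc38a2 had 84.0, 75.5, 70.6, and 48.4 RPKM and Slc7a2 189, 167, 171, and 141 in fed dex + S961 mice, all above the fed vehicle mice listed before. Against fed vehicle the log2 fold changes were 1.20 (SE 0.26, limma, adjusted p = 0.00623) for Slc38a2 and 0.82 (SE 0.15, limma, adjusted p = 0.00233) for Slc7a2, 2 calls of 7, where 10.6% of the genes tested passed, 2.7% upward and 7.9% downward, and both held without any 1 library. Slc38a4, with 374, 368, 349.7, and 304 RPKM, lay above all fed vehicle mice, and its log2 fold change was 0.40 (SE 0.14, limma, adjusted p = 0.0702). With a term for the library series it passed (limma, adjusted p = 0.0142), where 2204 genes passed, against 1193 without the term. Within replicates 1 to 3 and between the mice of replicate 4, the log2 fold changes were 1.16 and 1.35 for Slc38a2, 0.90 and 0.56 for Slc7a2, and 0.48 and 0.16 for Slc38a4. Summed Kupffer cell markers were at 52.3 to 61.8 RPKM with both drugs, against 65.0 to 101 in fed vehicle livers, with Vsig4, Cd5l, and Adgre1 past the test, the periportal marker Sds rose, and their part in these results was not tested. The comparison of dex, S961, and both drugs shares the fed vehicle mice, so the 3 sets of values are not independent. The test of whether S961 changed the effect of dex gave 0.05 (95% interval -0.72 to 0.83, limma, adjusted p = 1.0) for Slc38a2, -0.39 (95% interval -0.84 to 0.07, limma, adjusted p = 1.0) for Slc7a2, and -0.48 (95% interval -1.01 to 0.04, limma, adjusted p = 1.0) for Slc38a3. No gene of the 11251 passed it by limma, and 513 had an unadjusted p under 0.05, none of them among the 7. The median of all genes was 0.14 lower (log2) with both drugs than in fed vehicle mice, and relative to it the rises of Slc38a2 and Slc7a2 are larger.

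Fed mice with both drugs were also set against unfed vehicle mice. Slc38a2, at 48.4 to 84.0 RPKM against 32.5 to 55.9, had a log2 fold change of 0.55 (95% interval -0.00 to 1.09, limma, adjusted p = 0.424), and Slc7a2, at 141 to 189 against 113 to 176, one of 0.13 (95% interval -0.20 to 0.45, limma, adjusted p = 0.89). Both overlapped, and neither passed. Slc43a1, the carrier of branched-chain amino acids, had 3.82, 3.97, 4.28, and 4.97 RPKM in unfed vehicle and 6.90, 6.56, 6.85, and 7.80 in fed dex + S961 mice, without overlap, and a log2 fold change of 0.67 (SE 0.18, limma, adjusted p = 0.0654). None of the 7 passed, where 2.32% of the genes tested passed, 1.32% upward and 1.0% downward, or 261 of 11251. With a term for the library series Slc38a2 (limma, adjusted p = 0.0224) and Slc43a1 (limma, adjusted p = 0.0369) passed, where 546 of the 11251 genes passed. Within replicates 1 to 3 and between the mice of replicate 4, the log2 fold changes were 0.54 and 0.57 for Slc38a2 and 0.69 and 0.60 for Slc43a1.

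In unfed L-GRKO livers 4 of the 7 transporters passed, Slc38a2, Slc7a2, and Slc43a1 downward and Slc38a3 upward. Slc38a2 had 61.1, 58.9, 45.1, and 49.2 RPKM in GR fl/fl AAV-GFP and 25.4, 21.0, 39.3, and 19.8 in L-GRKO livers. L-GRKO replicate 3 was the highest knockout, still below all controls. Slc7a2 had 188, 162, 116, and 168 RPKM in control and 110.3, 81.4, 111, and 105 in L-GRKO livers, and control replicate 3 lay just above the highest knockouts. Slc43a1 had 4.25, 2.60, 3.54, and 1.82 RPKM in control and 1.15, 1.43, 0.794, and 1.41 in L-GRKO livers, without overlap but with a wide spread among controls. The log2 fold changes were -1.05 (SE 0.20, limma, adjusted p = 0.0102) for Slc38a2, -0.62 (SE 0.15, limma, adjusted p = 0.0367) for Slc7a2, and -1.03 (SE 0.22, limma, adjusted p = 0.0219) for Slc43a1. Slc38a3 went the other way, from 553, 521, 571, and 491 RPKM in control to 786, 726, 673, and 717 in L-GRKO livers, with no overlap and a log2 fold change of 0.44 (SE 0.09, limma, adjusted p = 0.0196), or 1.36-fold. Slc38a4, Slc1a2, and Slc16a10 overlapped between the groups, with log2 fold changes of 0.07, 0.06, and -0.04.

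These are 4 of the 7 genes, where 6.68% of the genes tested passed, 4.46% upward and 2.22% downward. Slc38a2 passed without any 1 library, while Slc38a3 was lost without any 1 of 3 libraries (control replicate 2, L-GRKO replicates 1 and 2), Slc43a1 without any 1 of 4 (control replicates 2 and 3, L-GRKO replicates 1 and 3), and Slc7a2 without any 1 of 7 (all but control replicate 3), with adjusted p of up to 0.0654, 0.0568, and 0.109. With libraries scaled to a common median ratio, Slc38a3 had a log2 fold change of 0.35 and did not pass (adjusted p = 0.0873). Without the filter on low values Slc43a1 (adjusted p = 0.072) and Slc7a2 (adjusted p = 0.0968) did not pass, nor did Slc7a2 without the variance trend (adjusted p = 0.0599). Summed markers of blood were at 226 to 289.7 RPKM in control and 332 to 624 in L-GRKO livers, and those of periportal hepatocytes at 3168 to 3856 and 2127 to 2567, both without overlap. Of the single markers, Hba-a1, Hbb-b1, and Alas2 of blood, the pericentral Tbx3 and Lgr5, and the stellate Lrat rose, and Cps1, Sds, and Ass1 of hepatocytes fell. Their part in these results was not tested. The median of all genes was 0.08 higher (log2) in L-GRKO livers.

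In fed, dex-treated mice the loss of Irs1 and Irs2 went with more Slc38a2 and Slc7a2. Slc38a2 had 80.0, 82.0, 60.1, and 67.5 RPKM in IRS fl/fl and 111, 107, 98.2, and 88.1 in L-IRSdKO livers, and Slc7a2 had 113, 137, 139.5, and 108 and 188, 175, 185, and 173. All knockouts were above all controls for both genes. The log2 fold changes were 0.48 (SE 0.12, limma, adjusted p = 0.0227) for Slc38a2, or 1.40-fold, and 0.54 (SE 0.09, limma, adjusted p = 0.00713) for Slc7a2, or 1.46-fold. Slc16a10 had 33.7, 55.1, 53.2, and 46.4 RPKM in IRS fl/fl and 52.2, 66.4, 61.6, and 71.0 in L-IRSdKO livers, with overlap and a log2 fold change of 0.43 (SE 0.16, limma, adjusted p = 0.0978). Slc38a3 overlapped, at 224 to 242 and 211 to 265 RPKM, with -0.03 (95% interval -0.20 to 0.14, limma, adjusted p = 0.814). These are 2 of the 7 genes, where 17.4% of the genes tested passed, 9.06% upward and 8.31% downward, the largest share of any comparison here. Slc38a2 did not pass without IRS fl/fl replicate 4 or L-IRSdKO replicate 2 or 3, at an adjusted p of up to 0.0694. Markers of adipocytes were at 18.4 to 31.0 RPKM in control and 33.2 to 60.1 in L-IRSdKO livers, with Adipoq and Cfd listed at 0 in all 4 knockouts, and those of bile duct cells at 19.7 to 46.2 and 7.87 to 13.9. Each of the 10 lists had a marker past the test, 16 markers in all. The endothelial Stab2, Lyve1, Pecam1, and Oit3, the Kupffer cell Clec4f and Timd4, the stellate Dcn, and Fabp4 rose, with endothelial sums of 104 to 133 RPKM in control and 132 to 165 in L-IRSdKO livers and Kupffer cell sums of 145 to 269 and 258 to 329.9. The pericentral Glul and Cyp1a2, Ttr, Cyp2f2, Krt7, Spp1, Cela1, and Alas2 fell. The part of these markers in the results was not tested.

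**Figure D4:**
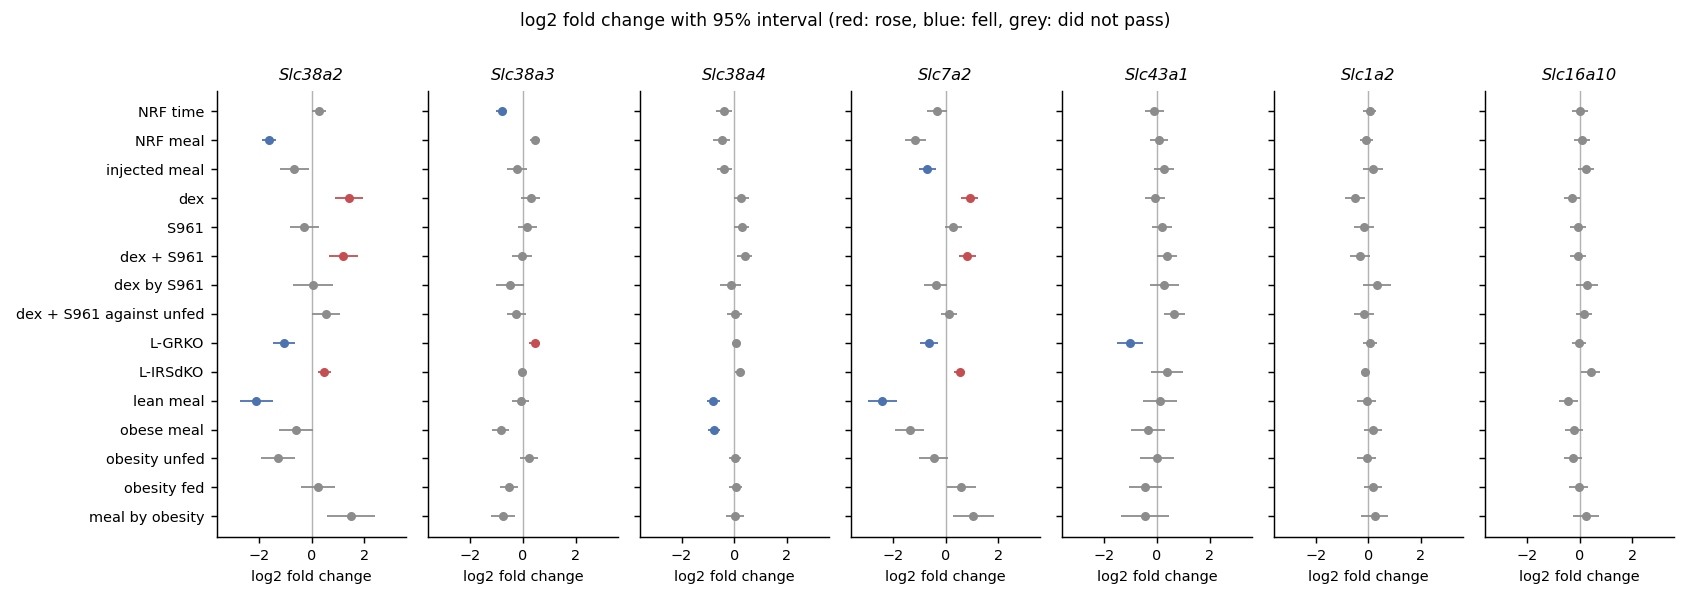
Log2 fold change (x axis, log2(RPKM + 0.5) scale) with its 95% interval for each of the 7 transporters (panels) in the 15 comparisons (y axis). Red marks genes that rose, blue genes that fell, and grey those that did not pass. Slc38a2 and Slc7a2 carry 12 of the 17 colored points, below 0 for meals and L-GRKO and above 0 for dex, dex + S961, and L-IRSdKO.

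Over the 15 comparisons, 17 of 105 tests of the 7 genes passed. Slc38a2 and Slc7a2 shared their direction wherever both passed, and their centred log2 levels had a Pearson correlation of 0.81 over the 54 libraries, between 0.76 and 0.88 within the single experiments. Without the library series term, Slc38a4 passed after the meal in lean and obese mice only, and Slc43a1 in L-GRKO livers only, among the comparisons made. With that term, Slc38a4 also passed for the vehicle meal and dex + S961, and Slc43a1 for dex + S961 against unfed vehicle. Slc1a2 and Slc16a10 passed in 0 of 15 comparisons. For Slc1a2 the estimates lay between -0.50 in dex and 0.32 in the test of dex by S961, and for Slc16a10 between -0.43 in lean meal and 0.43 in L-IRSdKO livers. Slc1a2 and Slc16a10 also depend on the transcript ID, because their next IDs were at 25.3 and 13.6 RPKM on average against 42.7 and 30.6 for the IDs used.

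The genes whose levels ran most like those of each transporter were found among 8996 genes, as the Pearson correlation of log2(RPKM + 0.5), centred on the mean of each experiment, over the 54 libraries. These libraries share groups, depth, and preparation within an experiment, so the values describe likeness only. For Slc38a4 and Slc7a2 the closest member of the table was the other of the pair, with r = 0.86, although within single experiments this correlation ran from -0.41 to 0.96. Slc7a2 was next followed by Garem1 (0.85) and Pck1 (0.85), the enzyme phosphoenolpyruvate carboxykinase of gluconeogenesis, and Slc38a4 by Klhl24 (0.85) and Crebrf (0.83). Slc38a2 ran closest to Lurap1l (0.90), Pptc7 (0.86), and Rasgef1b (0.85). Slc38a3 ran closest to 1810008I18Rik (0.82), Gnat1 (0.78), and the urate oxidase Uox (0.74). Gnat1 lies on the same strand, 7103 bases upstream of Slc38a3, and the GR peak 7442 bases upstream of Slc38a3 lies within Gnat1. The part of this closeness in their likeness was not tested. Slc1a2 ran closest to Glul (0.60), Kit (0.58), and Cyp1a2 (0.58), of which Glul and Cyp1a2 are markers of hepatocytes around the central vein. Slc43a1 (Arhgef37, 0.62, Eif4ebp3, 0.61, Snx10, 0.60) and Slc16a10 (Slc35e2, 0.64, Ric1, 0.61, Trak2, 0.60) had no partner above 0.65.

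Other amino acid transporters were read from 2 lists, 23 carriers of the plasma membrane, of which 12 to 15 were expressed enough to be tested, and 15 carriers of mitochondria and lysosomes, of which 13 were tested. With both drugs against fed vehicle, 1 of 12 rose and 4 fell among the plasma membrane carriers, and 3 of 13 rose and 2 fell among the others, where 10.6% of all genes tested passed. Slc25a15, the mitochondrial ornithine carrier of the urea cycle, went from 86.7 to 122 RPKM in fed vehicle to 169 to 230.2 in fed dex and 139 to 204 in fed dex + S961 mice, with log2 fold changes of 0.98 (SE 0.15, adjusted p = 0.00102) and 0.71 (SE 0.15, adjusted p = 0.00438). Slc7a2, which also carries ornithine, rose with dex too. In the lists, dex called 1 of 13 mitochondrial and lysosomal carriers and 0 of 12 of the plasma membrane, where 3.19% of all genes tested passed. Slc25a15 was called neither for the vehicle meal nor in L-GRKO livers, where Slc7a2 fell. Slc36a1, a proton-coupled carrier of small neutral amino acids, rose with the meal where Slc38a2 and Slc7a2 were lower, by 0.75 (SE 0.14, adjusted p = 0.00674) in vehicle mice and 0.88 (SE 0.11, adjusted p = 0.000689) in lean mice, and had -0.97 (SE 0.14, adjusted p = 0.00025) with both drugs. The taurine carrier Slc6a6 changed by -0.84 (SE 0.11, adjusted p = 0.00893) from ZT10 to ZT14-unfed, -0.85 (SE 0.14, adjusted p = 0.0008) with both drugs, and 0.62 (SE 0.13, adjusted p = 0.0156) in L-GRKO livers.

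In L-IRSdKO livers, 3 of 15 plasma membrane carriers rose and 3 fell, and 2 of 13 mitochondrial and lysosomal carriers rose and 1 fell, where 17.4% of all genes tested passed. Slc7a5 (LAT1), the exchanger of large neutral amino acids, was at 1.00 to 1.70 RPKM in IRS fl/fl and 3.11 to 7.76 in L-IRSdKO livers, with a log2 fold change of 1.87 (SE 0.27, adjusted p = 0.00438). In the injected mice it was at 0.917 to 1.09 RPKM in fed vehicle, 0.169 to 0.759 in fed S961, and 0.320 to 0.519 in fed dex + S961 mice, with -0.67 (SE 0.16, adjusted p = 0.0293) and -0.74 (SE 0.16, adjusted p = 0.00509). Slc7a5 was thus lower with the blocker of the insulin receptor and higher without Irs1 and Irs2, at low levels in both experiments. Slc25a22, a mitochondrial glutamate carrier, rose in L-IRSdKO livers and with both drugs, by 0.97 (SE 0.09, adjusted p = 0.000835) and 0.95 (SE 0.23, adjusted p = 0.0118), and Slc6a9, a glycine carrier, had -1.27 (SE 0.38, adjusted p = 0.0495) and 0.69 (SE 0.17, adjusted p = 0.0143). The other comparisons called at most 1 carrier of each list.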

How the data were processed

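Liver RNA of 54 mice was aligned by the authors to mm9 with STAR and normalized to RPKM on RefSeq transcripts, and these deposited RPKM values are the unit used. Peaks were called by the authors with HOMER, keeping the concordant peaks of both replicates. For their own tests the authors used DESeq2 on counts, and the deposited peak lists hold positions only. Versions are not given in the sources used here. RPKM corrects for depth and length but not for a few very abundant genes.

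Of 35707 RefSeq IDs, 35407 matched a gene symbol (RefSeq table of GRCm38.p6, used for names only), giving 24312 symbols, and 300 did not. The ID of the highest mean stood for each symbol. A linear model was fitted separately in each of the 5 experiments (R 4.3.3, limma 3.58.1) to log2(RPKM + 0.5), allowing a variance trend, over genes averaging 0.5 RPKM or more, and p-values were BH-adjusted over these genes. Following the study, the threshold was an adjusted p under 0.01 in the NRF and obesity experiments and under 0.05 in the others. Peaks were assigned to genes with the GENCODE M1 annotation and genome of mm9. The rest was computed in Python 3.11.15 (pandas 2.3.3, numpy 2.4.6, scipy 1.17.1), and the fits were tested on simulated data.

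The 7 genes, the lists of other transporters, and the cell type markers were chosen with earlier results of these data known. Named were the 7 genes in every comparison, Nr3c1, Irs1, and Irs2, the 3 most alike genes of each transporter, and listed transporters that passed with the largest changes. Marker lists of 5 to 8 genes were summed in RPKM, and those that moved with a comparison are named beside it. The alternatives were other pseudocounts, filters, and scalings, no variance trend, a replicate block, a library series term, and each library left out. Replicates 1 to 3 alone and the next transcript ID were added after seeing the data. Of the 7861 stretches of 50 bases in the Slc7a2 transcript, 34 also occur in other genes, as do 48 of 11546 in Slc1a2 and 0 in the other transporters. Slc7a2 and Slc1a2 each overlap a gene on the opposite strand, and whether the counting used strand is not given in the sources used here. H3K27Ac values were not analysed here.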

Additional observations from a re-analysis of the deposited data

Results flagged for a closer look

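A mouse that stood apart from the other 3 of its group was found in 3 of the 63 groups of 4 mice examined over the 7 transporters, and chance picks about 1 in 20. For Slc38a3, fed S961 replicate 3 was at 335.3 RPKM, with a median of 638 for the other mice of its group. Slc38a3 and Slc38a4 were both low in unfed vehicle replicate 4, at 464 RPKM against a median of 597 for Slc38a3, and at 256 RPKM against a median of 376 for Slc38a4. This mouse belongs to the library series of replicate 4, and the part of that series was not tested.

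The meal had opposite signs for Slc38a3 in 2 experiments. Both ZT14-fed livers of the NRF mice were above both ZT14-unfed livers, by a log2 fold change of 0.45, and all 3 fed obese livers were below all 3 unfed obese livers, with a log2 fold change of -0.85. The estimates differ by 1.31 on the log2 scale. This difference was not tested, and the experiments differ in diet, age, and preparation of the RNA.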

How the results depend on the processing

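None of the 17 passed results of the 7 transporters changed direction under any alternative. Without the filter or the variance trend, and with the replicate block or the series term, the log2 fold change itself stays the same. Only the p-value can move there, so those settings could not turn a direction. Over the settings other than a left-out library, 118 of 129 of their values stayed past the threshold, and with 1 library left out 89 of 120 did, the losses being in 8 of the 17 results, named beside them above. Where 1 NRF library was left out, the lone mouse was assumed to vary like the other groups. As reported, genes past the threshold numbered 127 for time in the NRF mice, 108 for the NRF meal, 352 for the vehicle meal, 359 for dex, 214 for S961, 1193 for dex + S961, 0 for dex by S961, 261 for dex + S961 against unfed vehicle, 778 for L-GRKO, 2253 for L-IRSdKO, 1169 for the lean meal, 140 for the obese meal, 88 for unfed obesity, 0 for fed obesity, and 15 for meal by obesity. Without the filter on low values they were 15 for time in the NRF mice, 16 for the NRF meal, 466 for L-GRKO, 769 for the lean meal, 34 for the obese meal, 32 for unfed obesity, and 1 for meal by obesity, and the transporters past it 0 for time in the NRF mice, 0 for the NRF meal, 2 for L-GRKO, and 0 for the obese meal. Without the variance trend, genes were 60 for the NRF meal and 3 for meal by obesity, and transporters 0 for time in the NRF mice. With a pseudocount of 0.1, the gene count was 1 for fed obesity. The cause of these shifts was not tested.

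Scaling the libraries to a common median ratio gave gene counts of 74 for time in the NRF mice, 221 for the vehicle meal, and 772 for dex + S961, and transporters 0 for time in the NRF mice and 1 for dex + S961 against unfed vehicle. The share of higher genes among those called went from 32.3 to 62.2% for time in the NRF mice, 57.4 to 40.4% for the NRF meal, 81.5 to 51.6% for the vehicle meal, 31.5 to 58.8% for dex, 49.5 to 70.3% for S961, 25.5 to 58.3% for dex + S961, 56.7 to 70.1% for dex + S961 against unfed vehicle, 66.7 to 44.3% for L-GRKO, 68.4 to 47.6% for the lean meal, and 54.5 to 31.8% for unfed obesity. The sign turned for transporters that had not passed, to -0.024 for Slc43a1 in the NRF meal, -0.043 for Slc16a10 in the NRF meal, 0.033 for Slc43a1 in dex, 0.014 for Slc16a10 in S961, 0.085 for Slc16a10 in dex + S961, 0.13 for Slc38a3 in dex + S961, -0.029 for Slc38a4 in L-GRKO, -0.037 for Slc1a2 in L-GRKO, -0.051 for Slc38a4 in unfed obesity, and -0.058 for Slc43a1 in unfed obesity (log2). With the next transcript ID of each gene, chosen after seeing the data, it turned to -0.055 for Slc16a10 in time in the NRF mice, -0.055 for Slc1a2 in time in the NRF mice, -0.13 for Slc1a2 in L-GRKO, 0.014 for Slc16a10 in L-GRKO, -0.23 for Slc1a2 in the obese meal, and 0.13 for Slc1a2 in unfed obesity.

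With the replicate block, genes were 10 for time in the NRF mice, 40 for the NRF meal, 928 for the vehicle meal, 968 for dex, 432 for S961, 2041 for dex + S961, 523 for dex + S961 against unfed vehicle, 1444 for L-IRSdKO, 62 for the obese meal, 40 for unfed obesity, and 3 for meal by obesity, and transporters 0 for time in the NRF mice, 3 for the vehicle meal, and 2 for dex + S961 against unfed vehicle. Mice with the same replicate number did not deviate together, with correlations of -0.12 to 0.316 for replicates 1 to 3 of the injected mice and -0.201 to 0.215 in the other experiments, except for 0.441 to 0.605 among replicates 4, so that the numbers do not pair the mice. The block moved Slc38a3 in the NRF mice and Slc7a2 in L-GRKO livers below the threshold, moved Slc38a2 and Slc38a4 past it for the vehicle meal, Slc38a4 for dex + S961, and Slc38a2 and Slc43a1 for dex + S961 against unfed vehicle, and changed no other call of a transporter. A term for the library series gave gene counts of 1036 for the vehicle meal, 1096 for dex, 478 for S961, 2204 for dex + S961, and 546 for dex + S961 against unfed vehicle, and transporters 3 for the vehicle meal and 2 for dex + S961 against unfed vehicle. Replicates 1 to 3 alone, chosen after seeing the data, gave gene counts of 716 for the vehicle meal, 818 for dex, and 4 for dex by S961, transporters 3 for the vehicle meal, 4 for dex, and 1 for dex + S961 against unfed vehicle, and turned signs to 0.033 for Slc16a10 in S961, 0.046 for Slc16a10 in dex + S961, 0.091 for Slc38a3 in dex + S961, and -0.053 for Slc38a4 in dex + S961 against unfed vehicle.

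With each library left out in turn, genes called ran from 2 to 208 for time in the NRF mice, 5 to 235 for the NRF meal, 86 to 394 for the vehicle meal, 158 to 537 for dex, 113 to 281 for S961, 667 to 1087 for dex + S961, 0 to 4 for dex by S961, 126 to 213 for dex + S961 against unfed vehicle, 391 to 708 for L-GRKO, 1080 to 3021 for L-IRSdKO, 424 to 715 for the lean meal, 0 to 113 for the obese meal, 5 to 357 for unfed obesity, 0 to 1 for fed obesity, and 0 to 18 for meal by obesity, and transporters from 0 to 1 for time in the NRF mice, 0 to 2 for the NRF meal, 0 to 2 for the vehicle meal, 1 to 3 for L-GRKO, 1 to 2 for L-IRSdKO, 0 to 2 for the obese meal, and 0 to 1 for unfed obesity. Transporters that did not pass and whose sign turned had log2 fold changes of -0.25 to 0.054 for Slc43a1 in time in the NRF mice, -0.056 to 0.16 for Slc1a2 in time in the NRF mice, -0.17 to 0.17 for Slc16a10 in time in the NRF mice, -0.026 to 0.19 for Slc43a1 in the NRF meal, -0.076 to 0.26 for Slc16a10 in the NRF meal, -0.19 to 0.11 for Slc43a1 in dex, -0.28 to 0.011 for Slc1a2 in S961, -0.20 to 0.036 for Slc16a10 in S961, -0.14 to 0.042 for Slc38a3 in dex + S961, -0.20 to 0.033 for Slc16a10 in dex + S961, -0.13 to 0.27 for Slc38a2 in dex by S961, -0.12 to 0.088 for Slc38a4 in dex + S961 against unfed vehicle, -0.015 to 0.21 for Slc7a2 in dex + S961 against unfed vehicle, -0.021 to 0.17 for Slc1a2 in L-GRKO, -0.12 to 0.059 for Slc16a10 in L-GRKO, -0.10 to 0.0061 for Slc38a3 in L-IRSdKO, -0.27 to 0.29 for Slc43a1 in the lean meal, -0.24 to 0.041 for Slc1a2 in the lean meal, -0.072 to 0.088 for Slc38a4 in unfed obesity, -0.36 to 0.20 for Slc43a1 in unfed obesity, -0.18 to 0.043 for Slc1a2 in unfed obesity, -0.056 to 0.11 for Slc38a4 in fed obesity, -0.18 to 0.18 for Slc16a10 in fed obesity, and -0.079 to 0.12 for Slc38a4 in meal by obesity.

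Depth limits Slc43a1 most, at 52 reads in its lowest library, and the L-IRSdKO libraries, whose RPKM were scaled by the fewest reads. With 2 or 3 mice per group, an exact permutation test could not reach 0.05, so that the calls in the NRF and obesity experiments rest on the spread that limma shares over genes.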
